A study of Mus musculus with 9 samples.

Results

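The 8 genes described here encode enzymes and regulators of glycogen metabolism: Ppp1r3c, Ppp1r3a, Ugp2, Gys1, Gbe1, Pygm, Phka1 and Phkg1. They were chosen by name, with earlier results of these data known. Every probe set annotated to one of them alone was taken. This gave 17 of the 45037 probe sets other than controls on the array and 8 of the 18193 genes tested. Expression was measured on Affymetrix mouse arrays in the gastrocnemius, a calf muscle made up mostly of fast fibres, of CD-1 mice, which are outbred, as young adults. The testosterone group was castrated and received a pellet of 2.5 mg testosterone straight after surgery, the castration group was castrated and received a placebo pellet, and the sham group had sham surgery and a placebo pellet. The muscles of non-fasted animals were collected 14 days after surgery. Each group had 3 arrays, each array carried RNA pooled from 3 animals, and all 3 pairwise comparisons share their groups with one another. The arrays of a group are called testosterone 1 to 3, castration 1 to 3 and sham 1 to 3 after the labels' replicate numbers.

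Muscle stores glucose as glycogen. UDP-glucose, made by the enzyme that Ugp2 encodes, is added to the growing chain by glycogen synthase (Gys1 in muscle), and the branching enzyme (Gbe1) makes the branch points. Glycogen phosphorylase (Pygm in muscle) releases glucose units again, and it is switched on by phosphorylase kinase, of which Phka1 encodes the muscle form of a regulatory subunit and Phkg1 the muscle form of the catalytic subunit. Protein phosphatase 1 acts the other way on the synthase and the phosphorylase when a targeting subunit, such as the products of Ppp1r3c or Ppp1r3a, holds it at the glycogen particle.

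Among the 8 genes, the larger differences relative to their error were those of a targeting subunit and, smaller and in the other direction, of the catalytic subunit of phosphorylase kinase. Ppp1r3c was lower on the castration arrays than on the testosterone arrays and than on the sham arrays, by 1.68-fold and 1.60-fold. Phkg1 was higher on the castration arrays than on the other arrays, by less. At its brighter probe set the 95% interval of castration against sham, -0.07 to 0.36, included 0. The other targeting subunit, synthase, branching enzyme, UDP-glucose pyrophosphorylase, phosphorylase and the regulatory kinase subunit had 95% intervals that included 0 in all 3 comparisons. No gene on the array passed an adjusted p of 0.05 in this design, so all differences below are given as values with their intervals and not as calls.

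The promoters of these 2 genes are shown because their values separate the castration arrays from the others. Each window runs from 250 bases before to 50 bases after the annotated start, from RefSeq on GRCm38.p6, and capitals mark the motif. The Ppp1r3c window lies at chr19:36736555-36736854 and the Phkg1 window at chr5:129879039-129879338, both on the minus strand and printed 5′ to 3′ along the gene.
Ppp1r3c: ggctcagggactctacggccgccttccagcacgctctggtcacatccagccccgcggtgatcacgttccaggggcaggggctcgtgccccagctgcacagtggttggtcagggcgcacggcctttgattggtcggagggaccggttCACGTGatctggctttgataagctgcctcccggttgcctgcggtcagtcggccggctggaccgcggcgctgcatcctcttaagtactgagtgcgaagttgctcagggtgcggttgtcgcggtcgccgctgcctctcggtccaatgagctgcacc
Phkg1: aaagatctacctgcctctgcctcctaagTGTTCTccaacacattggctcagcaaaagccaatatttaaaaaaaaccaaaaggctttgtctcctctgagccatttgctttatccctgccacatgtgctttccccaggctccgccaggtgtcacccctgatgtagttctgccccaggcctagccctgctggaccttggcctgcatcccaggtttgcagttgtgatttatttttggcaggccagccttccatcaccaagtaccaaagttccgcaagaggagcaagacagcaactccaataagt
3 motifs were searched on both strands in the windows of all 8 genes, which had 9 windows because 2 were given for Ugp2: AGAACA, a hexamer of androgen and glucocorticoid receptor sites, then the E-box CACGTG, then the forkhead motif GTAAACA. The first and the last end in the same 4 letters, and neither contains the other. The Ppp1r3c window holds 1 E-box that starts 104 bases upstream of the annotated start, and the Phkg1 window holds 1 receptor hexamer, on the opposite strand, that starts 222 bases upstream. The outer end annotated for Phkg1 lies further upstream, at chr5:129879134, so this distance holds for the start used here. None of the 3 motifs was found in the windows of the other 6 genes. Of 32851 promoter windows of this length in the table, 19.0% hold the receptor hexamer, 7.15% the E-box and 3.65% the forkhead motif. A match is a match of letters only, and the arrays give no measure of binding.

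All values that follow are log2 expression values as the authors deposited them, and a difference of 1 is a doubling. Levels of different probe sets depend on the probes and are not compared with each other. 2 arrays stood apart from the rest. The mean correlation of an array with the others was 0.972 for sham 2 and 0.981 for testosterone 2, against 0.989 to 0.990 for the others. The gap between the 3′ and 5′ control probe sets of Gapdh, which widens as RNA is broken or copied short, was 1.10 on testosterone 2 and 0.02 to 0.28 on the other arrays. The Actb controls gave 1.56 on testosterone 2 and 0.20 to 0.68 on the others. 11 of the 17 probe sets of the glycogen genes had their lowest value on testosterone 2, 3 had it on sham 2, and 1, of Gys1, had its highest value on testosterone 2. Over the 9 arrays r with the Gapdh gap was -0.89 for the dimmer probe set of Ppp1r3c and 0.06 for the brighter, and -0.92 for Pygm. Over the 8 arrays without testosterone 2 it was -0.67, 0.17 and -0.43 for the same probe sets. These correlations describe arrays that share a normalisation. The part of these arrays in the results was not tested beyond the fits without them given below.

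Ppp1r3c encodes the targeting subunit known as protein targeting to glycogen. Its probe set 1433691_at, the brighter of its 2, measured 11.51, 11.25 and 11.78 on testosterone 1, 2 and 3, 10.72, 10.91 and 10.65 on castration 1, 2 and 3, and 11.56, 11.32 and 11.44 on sham 1, 2 and 3. Every castration array was below every testosterone array and every sham array, while the testosterone and sham arrays overlapped. The group means were 11.51 ± 0.26, 10.76 ± 0.13 and 11.44 ± 0.12 in testosterone, castration and sham (SD, n = 3 each). By limma the difference of testosterone from castration was 0.75 (SE 0.14, 95% interval 0.43 to 1.07, adjusted p = 0.278). Castration differed from sham by -0.68 (SE 0.14, 95% interval -1.001 to -0.36, adjusted p = 0.485 by limma). Testosterone differed from sham by 0.07 (95% interval -0.25 to 0.39). The gene ranked 36 by p among all genes in testosterone against castration and 39 in castration against sham. In pooled whole muscle, fewer cells of a type and less RNA per cell cannot be told apart.

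**Figure D1:**
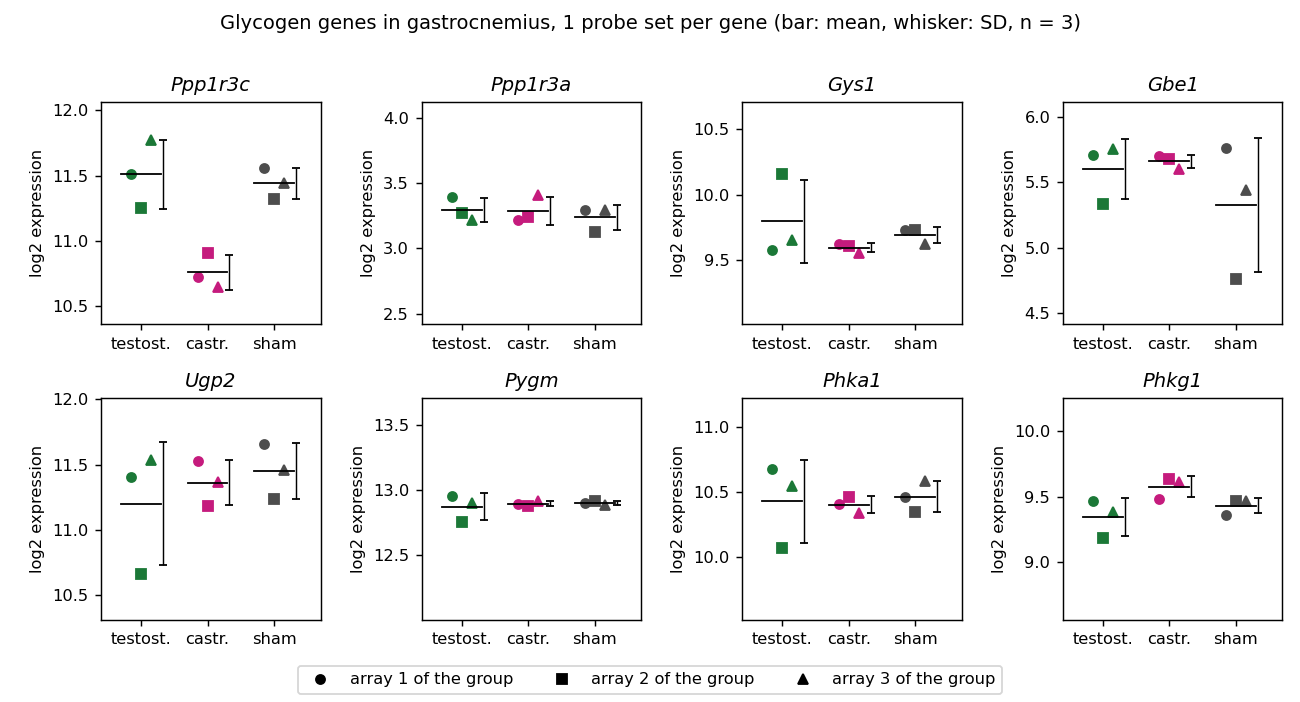
The log2 expression values of the brightest probe set of each of the 8 genes are plotted by group, testosterone, castration and sham from left to right, with 1 point per array (circle, square and triangle for arrays 1, 2 and 3), the group mean as a bar and the SD as a whisker (n = 3). Ppp1r3c is the gene in which the 3 castration arrays lie apart from all others below. Phkg1 is the one in which they lie above all others, by a small margin.

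Setting castration against the mean of the testosterone and sham groups, a contrast chosen after the values were seen, gave -0.72 for Ppp1r3c (SE 0.12, 95% interval -0.99 to -0.44, adjusted p = 0.156 by limma). The F test over the 3 groups gave it an adjusted p of 0.482 by limma. With limma array weights Ppp1r3c passed at 0.85 in testosterone against castration (adjusted p = 0.0204) and at -0.79 in castration against sham (adjusted p = 0.00808), where sham 1 carried a weight of 4.61 and sham 2 one of 0.164. Leaving out sham 2 and testosterone 2 was chosen with the values in view, and gave a difference of testosterone from castration of 0.88, with an adjusted p of 0.0525 by limma over all genes, just outside the threshold, and a difference of castration from sham of -0.74. Its second probe set, 1425631_at, measured 7.92, 4.48 and 8.20 on testosterone 1, 2 and 3, 7.49, 6.41 and 7.14 on the castration arrays, and 8.68, 6.72 and 6.94 on the sham arrays. The low value of testosterone 2 stands on the array with the wide control gap, and the groups overlapped. The fitted difference of this probe set was -0.15 for testosterone against castration (95% interval -2.32 to 2.03) and -0.43 for castration against sham (95% interval -2.61 to 1.74). Without testosterone 2 its difference of testosterone from castration was 1.05 (SE 0.57, 95% interval -0.29 to 2.39, adjusted p = 1 by limma over all probe sets). The 2 probe sets of Ppp1r3c therefore gave the same direction in castration against sham, and in testosterone against castration only without testosterone 2. At 1425631_at the direction in castration against sham rested on sham 1, at 8.68. Sham 2 and sham 3, at 6.72 and 6.94, lay below the castration mean of 7.01. With the mean of both in place of the brighter one, the difference of Ppp1r3c was 0.30 in testosterone against castration and -0.56 in castration against sham.

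**Figure D2:**
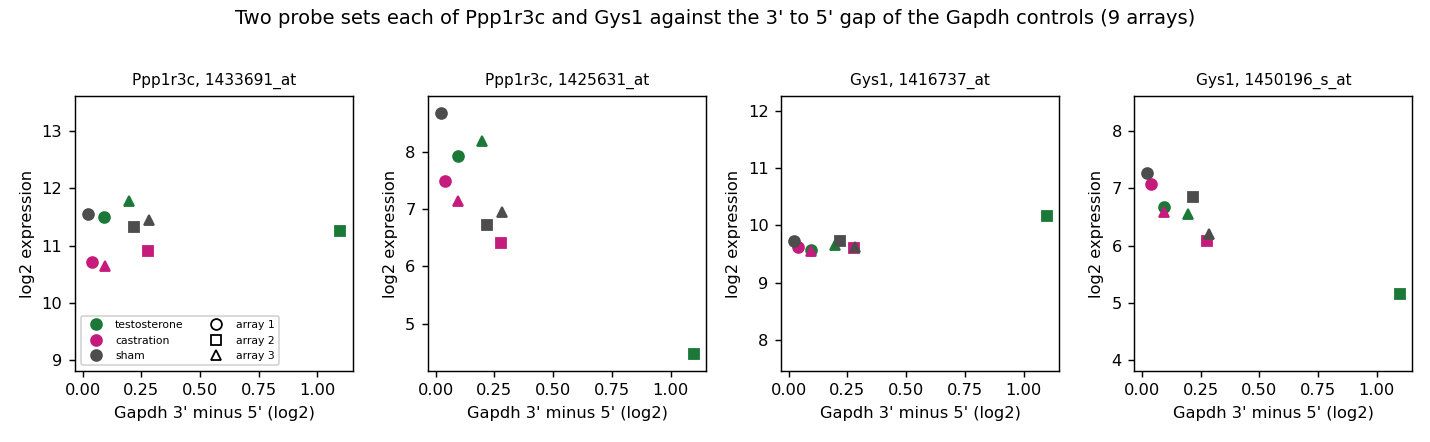
The log2 expression of both probe sets of Ppp1r3c and of Gys1 is plotted against the 3′ minus 5′ gap of the Gapdh controls, with colours for the groups and marker shapes for the array numbers (circle 1, square 2, triangle 3). Testosterone 2 lies alone at a gap of 1.10, where 1425631_at of Ppp1r3c and 1450196_s_at of Gys1 have their lowest values and 1416737_at of Gys1 its highest.

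Ppp1r3a encodes the targeting subunit of striated muscle. Its single probe set, 1422108_at, lay between 3.13 and 3.41 on the 9 arrays, near the array medians of 3.15 to 3.26. Its differences were 0.0049 for testosterone against castration, 0.06 for testosterone against sham and 0.05 for castration against sham (95% interval -0.16 to 0.26), and the groups overlapped. A probe set this dim carries little information on the gene.

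The genes of glycogen building showed small differences. Ugp2, which makes the UDP-glucose, had 5 probe sets. The brightest, 1451742_a_at, measured 11.40, 10.66 and 11.53 on testosterone 1, 2 and 3, 11.53, 11.19 and 11.37 on castration 1, 2 and 3, and 11.66, 11.23 and 11.46 on sham 1, 2 and 3. Testosterone 2 was the lowest of all, and the groups overlapped. The differences were -0.16 for testosterone against castration (95% interval -0.67 to 0.35), -0.25 for testosterone against sham (95% interval -0.76 to 0.26) and -0.09 for castration against sham (95% interval -0.60 to 0.42). The other 4 probe sets differed between groups by -0.16 to 0.16 in every comparison. Without sham 2 and testosterone 2, 1426461_at of Ugp2 differed by 0.22 in testosterone against castration (95% interval -0.01 to 0.46) and by -0.30 in castration against sham, where the arrays did not overlap (95% interval -0.53 to -0.06, adjusted p = 0.965 by limma over all probe sets). Gys1, the muscle glycogen synthase, measured 9.57, 10.16 and 9.66 on testosterone 1, 2 and 3, 9.62, 9.61 and 9.56 on the castration arrays, and 9.73, 9.73 and 9.62 on the sham arrays at 1416737_at. Castration and sham did not overlap, but the nearest pair of arrays stood at 9.6204 and 9.6215. The differences were 0.20 for testosterone against castration (95% interval -0.12 to 0.53), 0.10 for testosterone against sham and -0.10 for castration against sham (95% interval -0.42 to 0.23). The second probe set of Gys1, 1450196_s_at, measured 6.67, 5.15 and 6.55 on the testosterone arrays, 7.07, 6.09 and 6.59 on the castration arrays, and 7.27, 6.85 and 6.21 on the sham arrays. Testosterone differed from castration by -0.46 there (95% interval -1.47 to 0.55), so the 2 probe sets of Gys1 differ in sign, and testosterone 2 is the highest array in one and the lowest in the other. From sham, testosterone differed by -0.65 at 1450196_s_at (95% interval -1.67 to 0.36). Without sham 2 and testosterone 2 the brighter probe set differed by 0.02 between testosterone and castration. Gbe1, the branching enzyme, measured 5.71, 5.34 and 5.75 on the testosterone arrays, 5.70, 5.68 and 5.60 on the castration arrays, and 5.77, 4.76 and 5.44 on the sham arrays. Sham 2 was the lowest array, and it was 0.90 log2 units below the mean of the 7 arrays other than sham 2 and testosterone 2. Castration differed from sham by 0.34 (95% interval -0.19 to 0.86), and by 0.06 without sham 2.

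Among the genes of glycogen breakdown, the phosphorylase varied least. Pygm, the muscle phosphorylase, lay between 12.76 and 12.95 on all 9 arrays, with group means of 12.87 ± 0.10, 12.89 ± 0.02 and 12.90 ± 0.02 in testosterone, castration and sham (SD, n = 3 each). Its intervals were narrow: castration differed from sham by -0.0056 (95% interval -0.18 to 0.17), and testosterone differed from castration by -0.02. Phka1, the regulatory subunit of phosphorylase kinase, had 3 probe sets, and the brightest, 1435567_at, measured 10.67, 10.07 and 10.54 on testosterone 1, 2 and 3, 10.41, 10.47 and 10.34 on the castration arrays, and 10.47, 10.34 and 10.59 on the sham arrays. Testosterone 2 was again the lowest, and the differences were 0.02 for testosterone against castration and -0.06 for castration against sham (95% interval -0.40 to 0.28). The second, 1422743_at, measured 10.57, 9.71 and 10.49 on the testosterone arrays, 10.21, 10.30 and 10.26 on the castration arrays, and 10.45, 10.15 and 10.29 on the sham arrays. The dimmest, 1422744_at, was 7.83 on testosterone 2 and 8.32 to 9.16 on the other 8 arrays. Without sham 2 and testosterone 2 the probe set 1422743_at of Phka1 differed by 0.27 between testosterone and castration (95% interval 0.09 to 0.46, adjusted p = 0.775 by limma), and 1435567_at by 0.20.

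Phkg1, the catalytic subunit, measured 9.46, 9.18 and 9.38 on testosterone 1, 2 and 3, 9.49, 9.63 and 9.61 on castration 1, 2 and 3, and 9.36, 9.46 and 9.47 on sham 1, 2 and 3 at 1422315_x_at, whose suffix marks probes that may bind other transcripts. The castration arrays lay above every testosterone array and every sham array, but the nearest pair, castration 1 and sham 3, stood at 9.4852 and 9.4692. The group means were 9.34 ± 0.15, 9.58 ± 0.08 and 9.43 ± 0.06 in testosterone, castration and sham (SD, n = 3 each). Testosterone differed from castration by -0.23 (SE 0.094, 95% interval -0.45 to -0.02, adjusted p = 1.00 by limma), and castration from sham by 0.14 (SE 0.094, 95% interval -0.07 to 0.36, adjusted p = 0.838 by limma). The other probe set, 1425164_a_at, went the same way: it measured 9.00, 8.61 and 8.86 on the testosterone arrays, 9.19, 9.17 and 9.25 on the castration arrays, and 9.00, 8.98 and 8.90 on the sham arrays. Its differences were -0.38 for testosterone against castration (95% interval -0.60 to -0.15, adjusted p = 1.00 by limma over all probe sets) and 0.24 for castration against sham (95% interval 0.02 to 0.47, adjusted p = 0.883 by limma over all probe sets). Testosterone 2 was low for Phkg1 too, and without sham 2 and testosterone 2 the differences of 1422315_x_at were -0.15 for testosterone against castration (95% interval -0.34 to 0.03, which includes 0) and 0.16 for castration against sham (95% interval -0.02 to 0.35). Those of 1425164_a_at were -0.27 (95% interval -0.45 to -0.09) and 0.25 (95% interval 0.07 to 0.43) in the same comparisons.

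**Figure D3:**
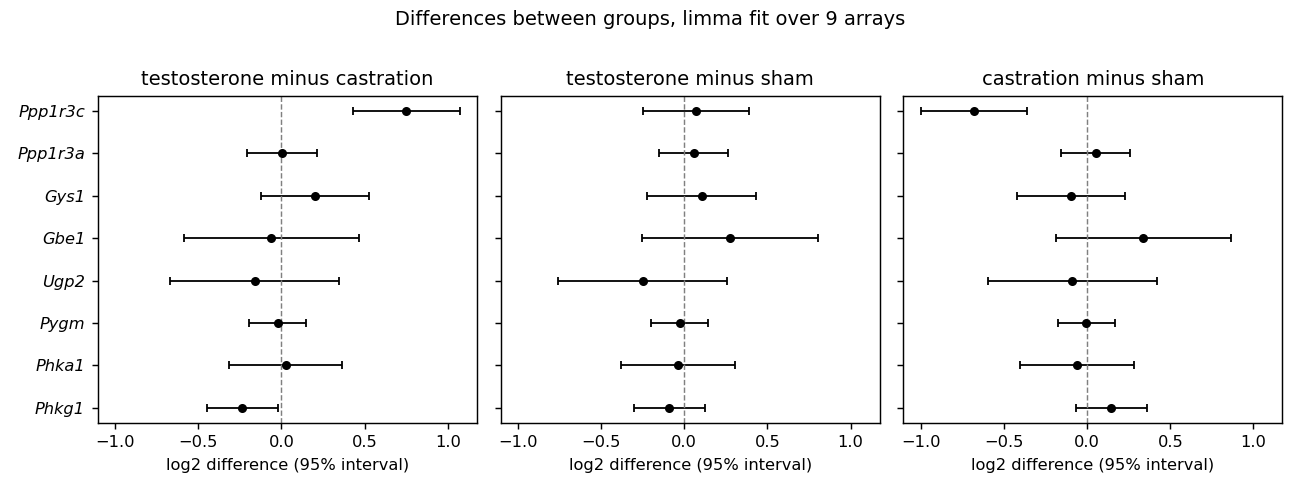
The log2 differences of the 8 genes are plotted in the 3 comparisons, testosterone minus castration, testosterone minus sham and castration minus sham, with 95% intervals from limma. Ppp1r3c has the only intervals well away from 0, at 0.75 and -0.68, and Phkg1 lies at -0.23 and 0.14.

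Over the 8 genes as a list the counts were small. The list was chosen with earlier results of these data known, so the counts are descriptive. No gene of the 18193 passed an adjusted p of 0.05 in any pairwise comparison or in the F test, a share of 0% in each, and none of the 8 did. In testosterone against castration 2 of the 8, Ppp1r3c (higher) and Phkg1 (lower), had an unadjusted p under 0.05, against 3.48% of all genes, and the same 2 had arrays that did not overlap, against 9.01% of all genes. In testosterone against sham none of the 8 had an unadjusted p under 0.05 (4.35% of all genes) and none had arrays that did not overlap (6.47% of all genes). In castration against sham 1 of the 8, Ppp1r3c (lower), had an unadjusted p under 0.05, against 4.72% of all genes, and 3 had arrays that did not overlap, Ppp1r3c and Gys1 lower and Phkg1 higher, against 8.89% of all genes. In the F test 1 of the 8, Ppp1r3c, had an unadjusted p under 0.05, against 3.64% of all genes. The median difference of the 8 genes was -0.01 in testosterone against castration, 0.01 in testosterone against sham and -0.03 in castration against sham, against -0.01, 0.01 and 0.01 over all genes. In testosterone against castration without sham 2 and testosterone 2, 7 of the 8 lay above 0 with a median of 0.05, 4 had arrays that did not overlap (3 higher and 1 lower), and 2 had an unadjusted p under 0.05, both higher, so that Phkg1 was no longer among them. Of all 18193 genes in that fit, 8797 lay above 0 and 1051 had an unadjusted p under 0.05. Arrays that did not overlap were found for 1491 genes on the higher side and 1649 on the lower. With fewer arrays left, such genes were more common than over the 9 arrays.

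Across the arrays Ppp1r3c and Phkg1 ran in opposite directions, with r = -0.55 over 9 arrays and r = -0.81 over the 7 without sham 2 and testosterone 2. Correlations among the other genes turned with those 2 arrays: r between Gys1 and Ugp2 was -0.77 over 9 arrays and 0.72 over 7, and r between Ugp2 and Phkg1 was 0.40 and -0.89. The points share normalisation and, within a group, a treatment, so these values describe the arrays only. Over the 9 arrays the 5 genes whose log2 values followed Ppp1r3c most closely, out of all genes tested with predicted and clone names left out, were Kif3c (r = 0.97), Spns2 (r = 0.95), Tns1 (r = 0.95), Smtnl2 (r = 0.95) and Smox (r = 0.94). Kif3c encodes a kinesin motor protein, Spns2 a transporter of sphingosine 1-phosphate, Tns1 a protein of focal adhesions, Smtnl2 a smoothelin-like protein and Smox spermine oxidase, an enzyme of polyamine breakdown. Their differences, testosterone against castration then castration against sham, were 0.51 and -0.49 for Kif3c, 1.60 and -1.50 for Spns2, 0.33 and -0.31 for Tns1, 0.70 and -0.80 for Smtnl2, and 2.45 and -2.26 for Smox. Both comparisons share the castration arrays. These 5 genes were picked for following Ppp1r3c over the same 9 arrays, so the directions of their differences follow from that choice.

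The other genes that act on glycogen had list medians close to 0. Of 21 further genes of glycogen synthesis, breakdown and targeting, 20 were measured by a probe set of their own. In testosterone against castration 11 lay above 0 and 9 below with a median of 0.0028, in testosterone against sham 9 lay above and 11 below with a median of -0.03, and in castration against sham 13 lay above and 7 below with a median of 0.03. None passed an adjusted p of 0.05, and none had an unadjusted p under 0.05 in any of them. The smallest p-values named Epm2a, which encodes laforin, a phosphatase of glycogen, at -0.21 in testosterone against castration, and Ppp1r3d, another targeting subunit of phosphatase 1, at -0.41 in that comparison and 0.45 in castration against sham. Ppp1r3g, also a targeting subunit, differed by -0.15 and Pygl, the liver phosphorylase, by 0.26 in testosterone against castration, and Pygl by -0.33 in castration against sham. Phkg2, the liver and testis catalytic subunit of phosphorylase kinase, differed by -0.25 in testosterone against sham and by -0.24 in castration against sham. Phkb and Phka2, other subunits of the kinase, differed by 0.19 and 0.20 and Pgm5, a phosphoglucomutase relative, by 0.28 in testosterone against sham, and Pgm5 by 0.35 in castration against sham. Sham 2 was the lowest array for Pgm5, and without sham 2 and testosterone 2 its differences were 0.06 in testosterone against sham and 0.15 in castration against sham. Pygl differed by -0.18 in castration against sham without them. Epm2a, Ppp1r3d, Ppp1r3g, Pygl, Phka2 and Phkg2 were dim, between 2.78 and 4.73 on all arrays, and such probe sets carry little information on the genes. Pgm5 lay between 4.20 and 5.25.

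Kinases and phosphatases that act on glycogen enzymes were represented by 21 of 25 listed genes. In castration against sham 16 lay above 0 and 5 below with a median of 0.18, against 0.01 over all genes. An unadjusted p under 0.05 was found for 3 on the higher side and 1 on the lower, where 4.72% of all genes had one, but none passed an adjusted p, the smallest of which was 0.485 by limma. The split was 15 to 6, and the median 0.07, without sham 2 and testosterone 2. In testosterone against castration 9 lay above and 12 below, with a median of -0.02, 1 higher and 2 lower at an unadjusted p under 0.05 (3.48% of all genes). In testosterone against sham 18 lay above and 3 below, with a median of 0.15 and none at an unadjusted p under 0.05 (4.35% of all genes). That split was 11 to 10, and the median 0.03, without sham 2 and testosterone 2. Ppp1r1a, an inhibitor of protein phosphatase 1 once it is phosphorylated, measured 7.92, 7.97 and 7.99 on the testosterone arrays, 8.41, 8.30 and 8.21 on the castration arrays, and 7.89, 7.35 and 7.74 on the sham arrays. Each castration array was above all the others, and the differences were -0.35 for testosterone against castration, 0.30 for testosterone against sham and 0.65 for castration against sham (SE 0.13, adjusted p = 0.485 by limma). Prkag3, the gamma subunit of AMP-activated protein kinase that is typical of fast muscle, measured 9.64, 9.60 and 9.45 in testosterone, 9.88, 10.06 and 9.91 in castration, and 9.22, 9.41 and 9.81 in sham. Its differences were -0.38 for testosterone against castration and 0.47 for castration against sham (SE 0.14, adjusted p = 0.838 by limma). Prkag2, another gamma subunit, was dim at 3.00 to 3.50 and differed by 0.29 for testosterone against castration and -0.39 for castration against sham. Akt1, a kinase of insulin signalling, differed by 0.63 in castration against sham. However, sham 2 stood at 5.54, and the difference was 0.32 without sham 2 and testosterone 2. Prkar1a, a regulatory subunit of protein kinase A, differed by -0.44 in testosterone against castration, with testosterone 2 at 7.73 against 8.67 and 8.52 on testosterone 1 and 3, and by -0.16 without sham 2 and testosterone 2. Prkab2, Gsk3b and Akt2 differed by 0.30, 0.26 and 0.23 in testosterone against sham, and by 0.19, 0.09 and 0.15 without sham 2 and testosterone 2. Ppp1r1a differed by 0.14 in that comparison without those arrays.

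Glucose entry and glycolysis were represented by 13 of 16 listed genes, and their medians were -0.04, -0.04 and -0.02 in testosterone against castration, testosterone against sham and castration against sham. Above and below 0 lay 6 and 7 genes, 3 and 10 genes, and 5 and 8 genes in the same order. No gene passed an adjusted p of 0.05. Pfkfb3, which makes fructose 2,6-bisphosphate, an activator of glycolysis, measured 9.30, 8.59 and 9.20 on the testosterone arrays, 9.52, 9.61 and 9.54 on the castration arrays, and 9.04, 9.15 and 9.12 on the sham arrays. The castration arrays were the highest, with testosterone 2 far below the other testosterone arrays, and the differences were -0.53 for testosterone against castration and 0.45 for castration against sham (SE 0.17, adjusted p = 0.838 by limma). Slc2a1, a glucose transporter, differed by -0.33 in testosterone against castration and by -0.21 in testosterone against sham, and Slc2a4, the insulin-responsive transporter of muscle, by -0.20 in testosterone against sham and -0.15 in castration against sham. Hk1, a hexokinase, differed by -0.20 in testosterone against castration and 0.21 in castration against sham. The probe set of Hk1 was dim, between 3.67 and 4.16 on all arrays, and that of Slc2a1 lay between 4.52 and 5.25. Pgam2, the muscle phosphoglycerate mutase, differed by -0.07 in testosterone against castration and in testosterone against sham, Pkm, a pyruvate kinase, by -0.11 in castration against sham, and Ldha, a lactate dehydrogenase, by -0.09 in testosterone against sham. Several of these values rested on sham 2 and testosterone 2. Without them, in testosterone against sham, Ldha differed by 0.0090, Slc2a4 by -0.07 and Pgam2 by -0.04. In testosterone against castration Pgam2 differed by -0.03 and Pfkfb3 by -0.31 without them, and in castration against sham Hk1 differed by 0.13.

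**Figure D4:**
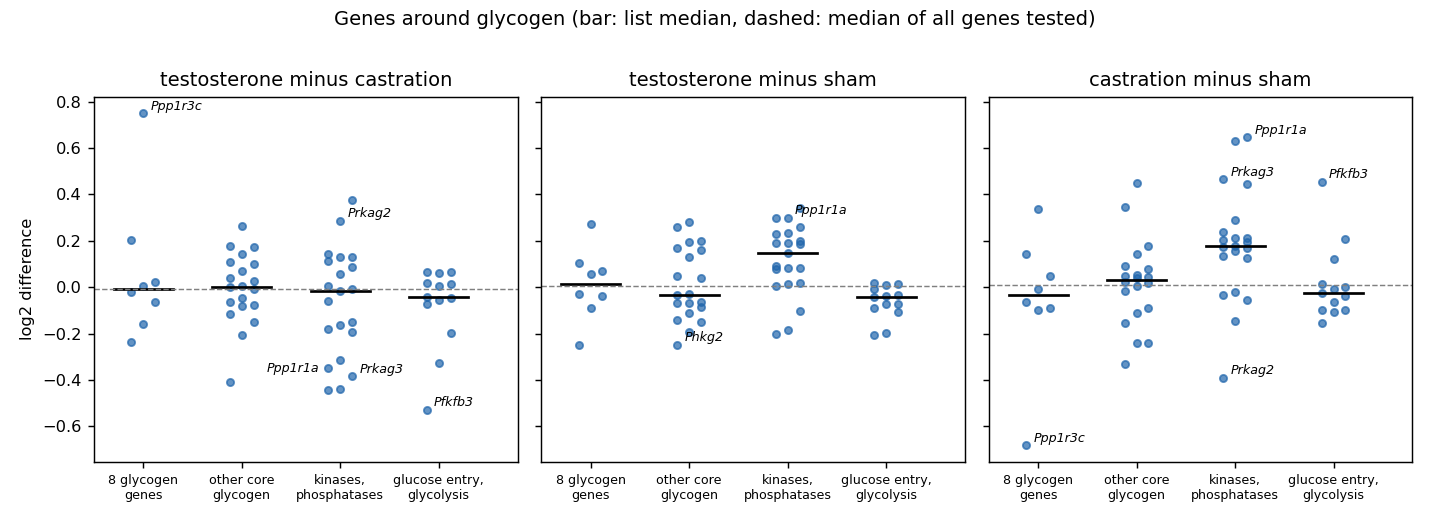
The log2 differences of the 8 glycogen genes, the other core glycogen genes, the kinases and phosphatases and the genes of glucose entry and glycolysis are plotted in the 3 comparisons, with 1 point per gene, a bar at the list median, a dashed line at the median of all genes tested, and labels on some of the genes named in the text. Most points lie within a narrow band around 0. Points further out include Ppp1r3c at 0.75 in testosterone against castration and -0.68 in castration against sham. In the latter comparison they also include Ppp1r1a at 0.65 and Akt1 at 0.63 among the kinases and phosphatases.

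Markers of other cells in the muscle were measured beside these results. Fast fibre markers, 12 of 12 measured, averaged 13.71 to 13.77 on the 9 arrays, close to the array maxima of 14.17 to 14.24, where a change could go unmeasured. Slow fibre markers, 8 of 8, lay at 11.01 to 12.01 on testosterone arrays, 11.13 to 11.92 on castration arrays and 10.84 to 11.71 on sham arrays. This list includes Myh2, a myosin of fast oxidative fibres, at -0.10 in testosterone against castration, where the other 7 lay above 0. That split turned without sham 2 and testosterone 2, to 1 above 0 and 7 below with a median of -0.06. Adipocyte markers, 10 of 12 measured, averaged 5.87, 6.54 and 5.07 on testosterone 1, 2 and 3, 4.95 to 5.02 on castration arrays, and 5.21, 6.33 and 5.58 on sham 1, 2 and 3. All 10 were above 0 in testosterone against castration, with a median of 0.66, and below 0 in castration against sham, with a median of -0.52, though none passed an adjusted p of 0.05. Leaving out sham 2 and testosterone 2, all 10 were above 0 in testosterone against castration, with a median of 0.27, and 8 were below 0 and 2 above in castration against sham, with a median of -0.21. The 3 castration arrays had the lowest adipocyte means of the 9 arrays, as they had the lowest values of the brighter probe set of Ppp1r3c. Over 9 arrays r between the list mean and Ppp1r3c was 0.32 at that probe set and -0.60 at the other. Phkg1 had r = -0.62 with the adipocyte mean and -0.61 with the slow fibre mean over 9 arrays at 1422315_x_at, and -0.72 and -0.31 at 1425164_a_at. Testosterone 2 had the highest of both means and the lowest value of both probe sets. Macrophage and lymphocyte markers, 9 of 10 measured, stood at 5.63 on testosterone 2 and at 4.10 to 4.88 on the other arrays. Fibroblast and matrix markers averaged 7.78 to 8.28 on testosterone arrays, 8.59 to 8.79 on castration arrays and 7.72 to 8.68 on sham arrays, and endothelial markers 5.68 to 5.95, 5.99 to 6.31 and 5.49 to 5.92 in the same order. The castration arrays thus also had the highest endothelial means. All 7 endothelial markers were below 0 in testosterone against castration (median -0.26) and above 0 in castration against sham (median 0.40). Of 8 fibroblast and matrix markers, 7 were below 0 in testosterone against castration, with a median of -0.62. Of these, 6 had an unadjusted p under 0.05 by limma (3.48% of all genes). Epidermal markers lay at 3.52 to 3.71 on testosterone arrays, 3.56 to 3.69 on castration arrays and 3.65 to 4.55 on sham arrays. The part of these markers in the results was not tested.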

How the data were processed

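The sample titles gave the groups and numbers, and the labels call the arrays biological replicates of pooled RNA, so the spread behind each p-value is that of pools of animals. Per the submitters' processing notes the authors ran RMA (version not stated there), and the log2 value of each probe set was used as deposited. RMA normalises all arrays together, so an array that stands apart can move the others. Arrays have no read depth, and 3 per group limits the precision.

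Of 45101 probe sets, 64 were controls, 34945 were listed to 1 gene, 932 to several (0 of these name one of the 8 genes) and 9160 were unlisted. Each gene took its brightest probe set by mean over the arrays, which left 18193 genes, and 204 probe sets found no match in the gene table. A limma 3.58.1 fit in R 4.3.3 (lmFit, eBayes) took all 9 arrays and a group term alone, two-sided, with Benjamini-Hochberg adjustment over all genes at 0.05. Intervals are 95% intervals of the fit. The tests were checked on simulated data.

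The members, the gene lists, the motifs and the rule for named genes were chosen with earlier results of these data known. The rule names all 8 members, up to 4 genes per list and comparison by the smallest p, and the 5 genes closest to Ppp1r3c by Pearson r. Promoter sequences matched all 8 genes by symbol. 14 alternatives, and each of the 9 arrays left out in turn, were tried.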

Additional observations from a re-analysis of the deposited data

How the results depend on the processing

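Across the alternatives no gene of the list passed an adjusted p of 0.05 in any comparison or in the F test, except 1 in each of castration against sham, testosterone against castration and the F test with limma array weights. That gene was Ppp1r3c, at -0.79 in castration against sham (adjusted p = 0.00808) and 0.85 in testosterone against castration (adjusted p = 0.0204), with weights of 4.61 for sham 1, 0.164 for sham 2 and 0.644 for sham 3. Over all genes those weights gave 174, 59 and 0 passing genes in castration against sham, testosterone against castration and testosterone against sham, and 99 in the F test, against 0 in each with all arrays weighted equally and no other change. Without sham 2 and testosterone 2, 18 and 27 genes passed in castration against sham and testosterone against castration, without sham 2 alone 7 and 28, renewed quantile normalisation 5 and 22, and the intensity trend 2 and 12. Averaging the probe sets of each gene gave 2 and 2, leaving out dim genes 0 and 7, fitting only the 2 groups compared 0 and 12, and without sham 1 0 and 3. In the F test 25 passed without sham 2 and testosterone 2, 12 without sham 2, 11 with renewed quantile normalisation, 7 with the intensity trend, 2 with averaged probe sets and 1 without dim genes, and in testosterone against sham 1 passed without testosterone 3. With single arrays left out the difference of Ppp1r3c was 0.62 to 0.88 in testosterone against castration (adjusted p = 0.159 to 1) and -0.76 to -0.62 in castration against sham (adjusted p = 0.288 to 0.999). With a replicate block it was -0.68 in castration against sham (adjusted p = 0.845) and 0.75 in testosterone against castration (adjusted p = 0.568). Same-numbered arrays deviated from their group means with correlations of 0.13, -0.42 and -0.49 between castration and sham. Between testosterone and castration these were -0.0001, 0.12 and 0.23, and between testosterone and sham 0.27, 0.22 and -0.19. The deviations are from means of 3 arrays, and sham 2 and testosterone 2 stood apart. These correlations therefore cannot settle whether same-numbered arrays belong together, and the main fit treated the arrays as unpaired.

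Some differences changed sign, and the cause was not tested. Apart from Ppp1r3c in testosterone against castration, which is 0.75 on its brighter probe set, these lay between -0.25 and 0.34 in the fit as reported. In castration against sham these were Pygm at 0.026 with arrays centred on the median, Ppp1r3a at -0.015 and Gbe1 at -0.028 with array weights, and Ppp1r3a at -0.0040 and Pygm at 0.0015 without sham 2 and testosterone 2. In testosterone against castration they were Gys1 at -0.13 and Phka1 at -0.074 with the mean of probe sets, Gbe1 at 0.0052 and Pygm at 0.0081 with array weights, Gbe1 at 0.070, Ugp2 at 0.11 and Pygm at 0.035 without sham 2 and testosterone 2, and Ppp1r3c at -0.15 on its other probe set. In testosterone against sham they were Ppp1r3c at -0.26 and Gys1 at -0.27 with the mean of probe sets, Pygm at 0.0065 centred, Gys1 at -0.022, Gbe1 at -0.023, Pygm at 0.0012, Phka1 at 0.049 and Phkg1 at 0.0059 with array weights, Gys1 at -0.062, Pygm at 0.036, Phka1 at 0.082 and Phkg1 at 0.0064 without sham 2 and testosterone 2, and Ppp1r3c at -0.58 on its other probe set. With single arrays left out, castration against sham ranged from -0.20 to 0.013 for Ugp2, from -0.010 to 0.088 for Ppp1r3a and from -0.015 to 0.0028 for Pygm. Testosterone against castration ranged from -0.046 to 0.066 for Ppp1r3a, -0.098 to 0.20 for Phka1, -0.14 to 0.070 for Gbe1, -0.33 to 0.11 for Ugp2 and -0.064 to 0.035 for Pygm. Testosterone against sham ranged from -0.0063 to 0.50 for Gbe1, -0.16 to 0.14 for Phka1, -0.079 to 0.22 for Gys1, -0.42 to 0.017 for Ugp2, -0.069 to 0.029 for Pygm and -0.062 to 0.20 for Ppp1r3c.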
